A study of Mus musculus with 18 samples.

Results

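The 35 genes described here encode transcription factors that act in the formation of mesoderm, endoderm or the tissues derived from them. Mesoderm and endoderm are the germ layers that give rise to heart, muscle, blood, limb skeleton and gut. The list holds 9 T-box factors, 5 GATA factors, 4 factors of the Hand and Nkx2 families and 4 myogenic bHLH factors. A further 8 are somite and mesenchyme factors and 5 are gut and endoderm factors. The list was drawn up by gene name, without a threshold on any measured value, but with earlier results of these data known. All 35 genes were found among the 20661 autosomal protein-coding genes of the GRCm38 annotation. For each gene, the H3K27me3 intervals that overlapped the gene body or its 2.5 kb flanks were collected in every library, and their presence, read counts and covered bases were compared.

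H3K27me3 was measured by bulk CUT&Tag, in which an antibody guides a transposase to the mark so that the DNA beside it is tagged and sequenced. The tissue was the medial ganglionic eminence (MGE), the ventral forebrain zone that produces many cortical interneurons, taken from mouse embryos on E12.5 or on E15.5. Each stage had 3 WT and 3 Ezh2 KO libraries labelled as biological replicates, and 6 further samples of the 18, heterozygous for the deletion, are not used here. The fathers were Nkx2.1-CreC/C;Ezh2F/+ and the mothers Ai9F/F;Ezh2F/+, so by this cross the embryos of both genotypes carried the Nkx2.1-Cre allele and the Ai9 reporter of recombination, and the KO is labelled Nkx2.1-CreC/+;Ezh2;Ai9F/+. The Cre is driven by Nkx2-1 and deletes Ezh2 in the Nkx2-1 lineage alone, and the protocol names no sorting of nuclei, so other cells of the dissected tissue kept Ezh2. The entire MGE was taken at E12.5, whereas at E15.5 the dissection was guided by reporter fluorescence to Tom+ tissue, so stage and dissection cannot be told apart. MGEs of embryos with the same genotype were combined where applicable.

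H3K27me3 is placed by Polycomb repressive complex 2, whose catalytic subunit is Ezh2 or its paralog Ezh1, and is typical of developmental genes that are held silent. In neural tissue the regulators of other germ layers are textbook carriers of the mark, often as broad domains that span the gene and its surroundings. Start sites rich in CpG dinucleotides are the usual places where the complex is found.

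The 12 lists held 5008 to 13289 intervals and total counts of 573838 to 6846250. The depth recovered from each list, the mean count per 200 bp window, was 0.117 to 0.698 in the E12.5 WT libraries, 0.212 to 0.272 in E12.5 KO, 0.0751 to 0.150 in E15.5 WT and 0.179 to 0.346 in E15.5 KO. At E15.5 every KO library was deeper than every WT library, so depth and genotype cannot be told apart at that stage, while at E12.5 the WT depths lay on both sides of the KO depths. Counts below were brought to a common depth, the mean over libraries, and are called depth-scaled counts. Ezh2 itself had an interval in 0 of 12 libraries, so the lists hold no check of its deletion. The MGE regulators Nkx2-1 and Lhx6 had one in all 12, and 8 of 10 MGE genes did, against 0 of 18 housekeeping genes and 12.1% of all genes. Of the 18 housekeeping genes, 5 had an interval in some libraries and 13 in none. Of all 20661 genes, 5519 had one in some libraries and 12651 in none. The mark is not a measure of expression, so these values do not test the identity of the tissue. In bulk tissue, fewer marked cells and less mark per cell cannot be told apart.

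Most of the lineage regulators carried H3K27me3 in the MGE in every library. An interval was present in all 12 libraries at 28 of the 35 genes, whereas 12.1% of all autosomal protein-coding genes (2491 of 20661) met this criterion. Within single libraries, 28 to 30 of the 35 genes had an interval (80.0% to 85.7%), against 15.9% to 31.5% of all genes. The number of marked regulators thus stayed within 28 to 30 while the share of all genes varied with the list. In 11 of the 28 genes the intervals covered the whole gene body and both flanks in every library. The list was chosen with earlier results of these data known, so these shares describe it and were not tested.

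**Figure D1:**
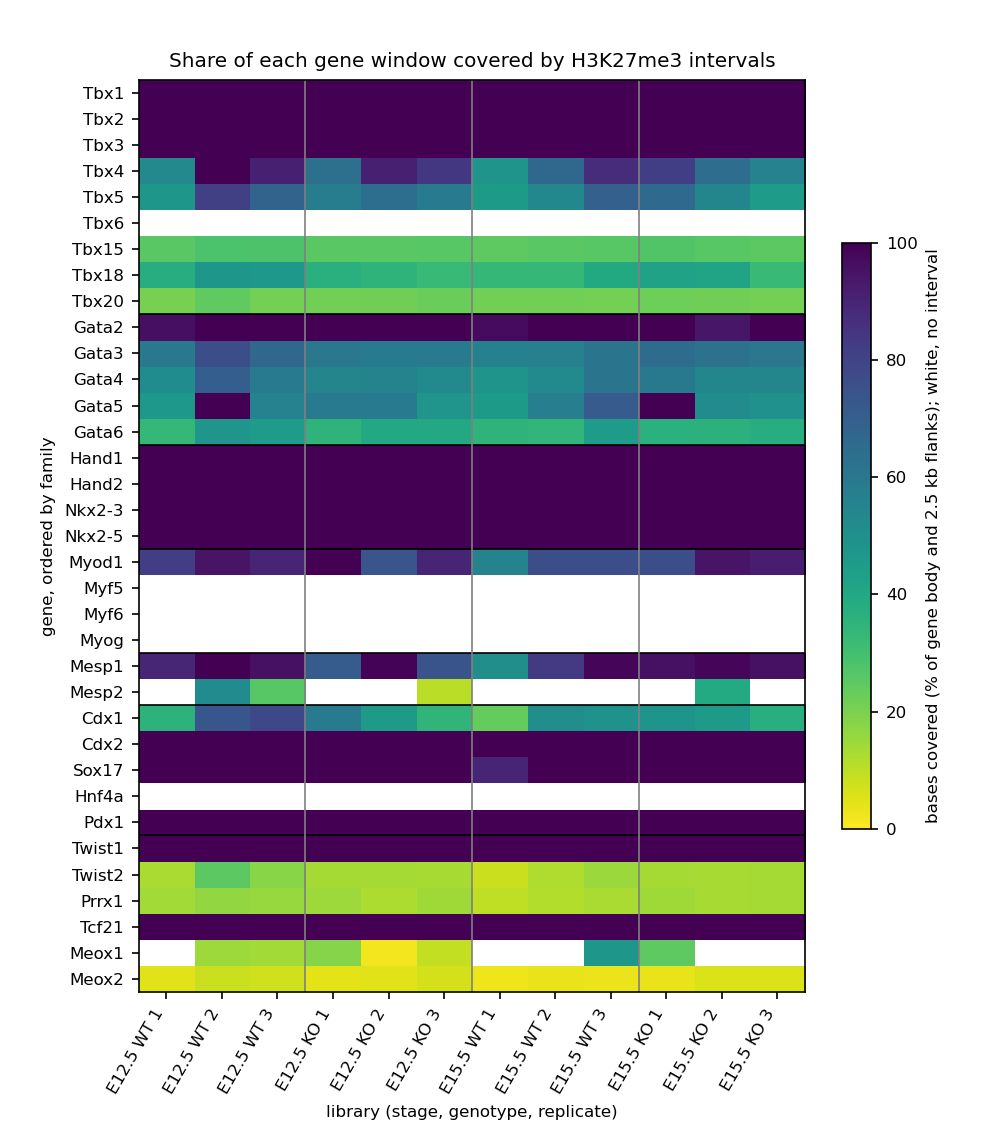
Share of each gene window (gene body and 2.5 kb flanks) covered by H3K27me3 intervals, as a percentage given by colour, for 35 genes (rows, grouped by family) in 12 libraries (columns). White cells had no interval: 5 genes are white throughout, Mesp2 is coloured in 4 libraries and Meox1 in 7, and 28 genes are coloured in all 12.

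By family, the mark was present in all 12 libraries at 8 of 9 T-box genes, 5 of 5 GATA genes, 4 of 4 Hand and Nkx2 genes, 6 of 8 somite and mesenchyme genes, 4 of 5 gut and endoderm genes and 1 of 4 myogenic bHLH genes. The marked T-box genes were Tbx1 (pharyngeal arches), Tbx2 and Tbx3 (heart and limb), Tbx4 (hindlimb), Tbx5 (forelimb and heart), Tbx15 (skin and skeletal mesenchyme), Tbx18 (epicardium) and Tbx20 (heart). The GATA genes were Gata2 and Gata3, which act in blood cell formation, and Gata4, Gata5 and Gata6, which act in heart and endoderm. Hand1 and Hand2, bHLH factors of the heart, Nkx2-5 (heart) and Nkx2-3 (gut and spleen) made up the Hand and Nkx2 group. All 4 were covered over their full windows in every library. The other marked genes were Mesp1 (early cardiac mesoderm), Twist1, Twist2 and Prrx1 (mesenchyme), Tcf21 (epicardial and visceral mesenchyme), Meox2 (somites and limb muscle), Cdx1 and Cdx2 (posterior axis and intestine), Sox17 (endoderm and endothelium), Pdx1 (pancreas) and Myod1, a master regulator of skeletal muscle.

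5 genes had no interval in any library. These were Tbx6, which specifies paraxial mesoderm, the muscle regulators Myf5, Myf6 and Myog, and Hnf4a, a regulator of liver and gut epithelium. The distance from the gene to the nearest interval had a median over the 12 libraries of 61.1 kb for Tbx6, 209.9 kb for Myf5, 219.8 kb for Myf6 and 92.3 kb for Hnf4a. Myog was different, since an interval lay 3.05 to 5.05 kb past its right-hand end in all 12 libraries, over the neighbouring gene Ppfia4, with a length of 2.8 to 6.4 kb and 14 to 474 counts. The smallest intervals called in the lists held 5 to 13 counts, so a weaker mark at these genes was not detectable at this depth.

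2 genes were marked in some libraries. Mesp2, the segmentation partner of Mesp1, had depth-scaled counts of 21.2 and 11.4 in E12.5 WT replicates 2 and 3, 11.8 in E12.5 KO replicate 3 and 20.5 in E15.5 KO replicate 2, with no interval in the other 8 libraries. Meox1, a somite factor, had 21.2 and 19.5 in E12.5 WT replicates 2 and 3, 22.0, 7.63 and 13.9 in E12.5 KO replicates 1, 2 and 3, 109 in E15.5 WT replicate 3 and 26.2 in E15.5 KO replicate 1. Both genotypes and both stages were among the libraries with an interval at either gene.

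The 28 genes differed widely in the density of the mark. Density is given as the depth-scaled count per kb of the overlapping intervals, averaged over the 12 libraries. Its median over the 28 genes was 185.7 per kb, against 29.1 per kb over all 2491 genes with an interval in all libraries, and the intervals had a median length of 24.15 kb against 7.4 kb. All 28 genes lay above the median of the 2491, and 20 lay among the highest 10%. These values describe the list and were not tested.

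Gata2 was the most densely marked, with 318 per kb, a density higher than that of 99.4% of the 2491 genes. Its values in replicates 1, 2 and 3 were 423, 265 and 274 per kb in E12.5 WT, 246, 321 and 299 in E12.5 KO, 426, 295 and 298 in E15.5 WT and 257, 408 and 305 in E15.5 KO. The groups overlapped, and the highest values came from 1 library each of E12.5 WT, E15.5 WT and E15.5 KO. The depths of these were 0.117, 0.0751 and 0.216. The lowest value, 246, came from E12.5 KO replicate 1 with a depth of 0.212. In the deepest library, E12.5 WT replicate 2 (0.698), it was 265. The part of depth in the densities given here was not tested. Next in order were Tbx2 (272 per kb), Gata4 (261), Hand2 (237) and Gata3 (237), whose ranges over the libraries overlapped that of Gata2. From Gata2 to Tbx18 (136 per kb) 21 genes followed each other with overlapping ranges.

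The remaining 7 genes lay below 100 per kb, a limit set after the values were seen, and are called sparsely marked here: Twist2 (67.5), Meox2 (59.0), Gata5 (57.9), Myod1 (49.5), Prrx1 (34.1), Mesp1 (33.3) and Cdx1 (30.2). Cdx1, the intestinal paralog of Cdx2, stood at 30.2 per kb where Cdx2 reached 221, and its density was above that of 51.7% of the marked genes. Over the 12 libraries Cdx1 ranged from 13.96 to 50.9 per kb, Mesp1 from 20.03 to 51.2 and Gata2 from 246 to 426, so the ranges of the lowest 2 genes overlapped each other and lay below that of Gata2. Between neighbours at the limit, Tbx18 ranged from 103 to 157 per kb and Twist2 from 43.4 to 110.1, so their ranges overlapped. 5 of the 7 belonged to the somite, mesenchyme and myogenic groups, and their intervals were short, with median lengths of 3.4 kb at Meox2, 6.9 kb at Myod1 and 10.2 kb at Prrx1, compared with 49.2 kb at Hand2 and 57.4 kb at Tbx5.

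**Figure D2:**
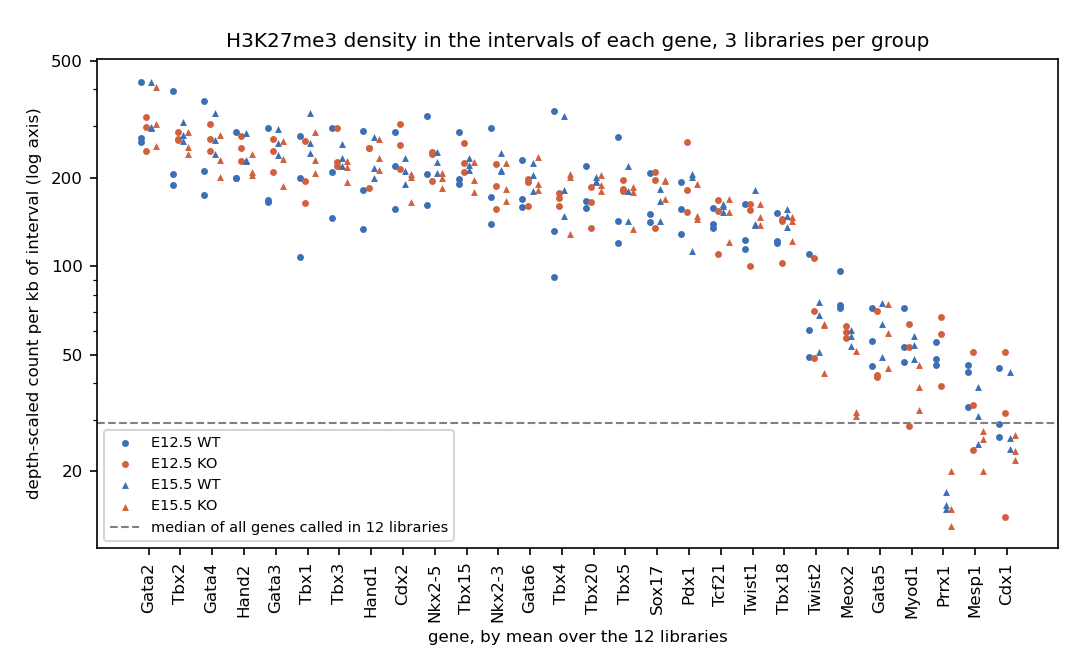
Depth-scaled count per kb of interval (log axis) for the 28 genes with an interval in all 12 libraries, ordered by mean; each point is 1 library, circles E12.5, triangles E15.5, blue WT, orange KO. Values run from 318 per kb at Gata2 to 30.2 at Cdx1, with a step between Tbx18 (136) and Twist2 (67.5), and the dashed line is the median of all genes with an interval in all 12 libraries, 29.1.

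The sequences upstream of the start sites were compared for their CpG content. RefSeq promoter windows (assembly GRCm38.p6, 250 bases before and 50 bases from the start) were matched by symbol for 23 of the 35 genes, with 26 windows, since Gata2, Tbx1 and Hnf4a have a pair each. Shown are the 250 bases before the start of the gene with the highest density (Gata2, both starts) and the lowest density among those shown (Mesp1), the genes with the smallest adjusted p between genotypes over both stages together (Nkx2-3 and Gata5), and, chosen after their values were seen, Myog and Hnf4a, which had no interval. Each runs 5′ to 3′ on the gene's strand, and capitals mark CpG dinucleotides.

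Gata2, first start, chr6:88193641-88193890, plus strand: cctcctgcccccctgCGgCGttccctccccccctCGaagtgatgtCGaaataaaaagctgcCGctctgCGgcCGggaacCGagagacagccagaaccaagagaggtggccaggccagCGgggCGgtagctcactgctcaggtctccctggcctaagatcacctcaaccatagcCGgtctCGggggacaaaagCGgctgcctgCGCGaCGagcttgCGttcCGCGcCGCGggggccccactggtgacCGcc
Gata2, second start, chr6:88198414-88198663, plus strand: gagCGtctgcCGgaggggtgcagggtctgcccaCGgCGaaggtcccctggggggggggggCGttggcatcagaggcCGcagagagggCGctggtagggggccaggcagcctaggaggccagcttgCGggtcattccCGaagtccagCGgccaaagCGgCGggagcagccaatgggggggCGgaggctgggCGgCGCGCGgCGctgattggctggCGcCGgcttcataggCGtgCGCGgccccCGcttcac
Nkx2-3, chr19:43612075-43612324, plus strand: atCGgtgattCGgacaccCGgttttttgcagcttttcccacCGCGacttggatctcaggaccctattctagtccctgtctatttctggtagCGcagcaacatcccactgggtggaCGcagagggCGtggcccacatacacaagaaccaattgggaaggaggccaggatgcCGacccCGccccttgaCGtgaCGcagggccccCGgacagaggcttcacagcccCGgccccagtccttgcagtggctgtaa
Gata5, chr2:180334680-180334929, minus strand: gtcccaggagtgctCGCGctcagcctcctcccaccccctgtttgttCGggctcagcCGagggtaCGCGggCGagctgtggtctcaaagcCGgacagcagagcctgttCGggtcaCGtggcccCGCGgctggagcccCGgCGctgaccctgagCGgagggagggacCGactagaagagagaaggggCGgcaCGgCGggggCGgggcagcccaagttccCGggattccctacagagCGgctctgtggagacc
Mesp1, chr7:79793591-79793840, minus strand: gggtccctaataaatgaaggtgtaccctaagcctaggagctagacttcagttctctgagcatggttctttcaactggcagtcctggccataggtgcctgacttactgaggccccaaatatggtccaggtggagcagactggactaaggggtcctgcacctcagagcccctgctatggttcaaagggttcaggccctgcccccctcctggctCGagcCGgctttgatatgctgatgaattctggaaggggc
Myog, chr1:134289754-134290003, plus strand: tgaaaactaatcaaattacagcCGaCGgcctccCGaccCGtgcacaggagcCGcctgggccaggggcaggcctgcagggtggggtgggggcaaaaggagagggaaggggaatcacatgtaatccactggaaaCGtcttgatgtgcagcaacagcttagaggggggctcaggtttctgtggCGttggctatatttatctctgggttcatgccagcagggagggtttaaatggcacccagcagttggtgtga
Hnf4a, first start, chr2:163506607-163506856, plus strand: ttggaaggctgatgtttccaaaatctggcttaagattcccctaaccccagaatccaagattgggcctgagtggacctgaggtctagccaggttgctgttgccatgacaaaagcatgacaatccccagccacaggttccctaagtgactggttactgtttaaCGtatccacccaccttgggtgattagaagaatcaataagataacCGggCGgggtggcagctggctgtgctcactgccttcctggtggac
Hnf4a, second start, chr2:163546905-163547154, plus strand: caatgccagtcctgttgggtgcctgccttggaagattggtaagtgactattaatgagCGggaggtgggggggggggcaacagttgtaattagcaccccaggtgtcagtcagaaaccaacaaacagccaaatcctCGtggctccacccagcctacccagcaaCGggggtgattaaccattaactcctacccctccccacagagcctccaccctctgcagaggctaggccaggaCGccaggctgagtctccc

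Within these 250 bases the capitals number 22 and 24 CpG at the Gata2 starts, 22 at Gata5 and 14 at Nkx2-3, against 7 at Myog, 3 and 4 at Hnf4a and 2 at Mesp1. Over the full windows of 300 bases, the 20 windows of genes marked in all 12 libraries held 4 to 32 CpG with a median of 16.5. The 5 windows of unmarked genes held 3 to 9: 3 at Myf5, 4 at both starts of Hnf4a, 7 at Tbx6 and 9 at Myog. The 2 sets overlapped, since 5 of the 20 marked windows also held fewer than 10: 4 at Mesp1, 6 at Prrx1, 8 at Tbx4, 8 at Tcf21 and 9 at Nkx2-5. Among all genes the windows had a median of 18 CpG where an interval was present in all libraries and 9 where there was none, and 10 or more CpG were found in 73.7% and 48.6% of these windows and in 57.9% of all 20084 windows. The count of CpG is a description of these windows, and no test of it was made.

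The mark at the lineage regulators included the start site itself. The start lay inside an interval in all 12 libraries for 19 of 20 windows of the genes marked in every library (95%), against 56.4% of the windows of all such genes. The exception was Prrx1, whose start was inside an interval in 11 libraries. At Hand2 the interval reached a median of 14.1 kb upstream and 35.3 kb downstream of the start, and at Nkx2-3 21.2 kb upstream and 12.1 kb downstream. At Meox2 it reached a median of 1.64 kb upstream and 1.06 kb downstream, in a gene body of 71.0 kb.

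**Figure D3:**
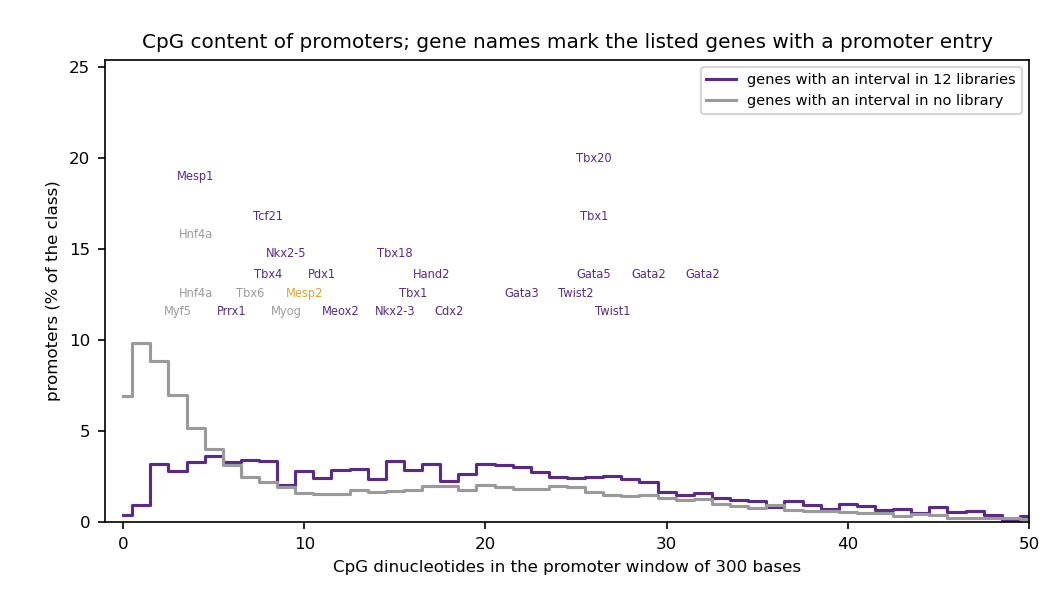
CpG dinucleotides in promoter windows of 300 bases (horizontal axis) against the share of promoters in percent (vertical axis), for genes with an interval in all 12 libraries (purple line) and in none (grey line). Gene names are placed at their own CpG count, at a height without meaning, in purple for genes marked in all 12 libraries, grey for none and orange for Mesp2; the grey names lie at 3 to 9 CpG and the purple names at 4 to 32, and the axis ends at 50.

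The comparison of KO with WT asks how deletion of Ezh2 in the Nkx2-1 lineage changes the mark at these genes. At E12.5 the log2 differences of the 21 genes at or above 100 per kb ran from -0.66 at Pdx1 to 0.07 at Hand2, and that of Nkx2-3 was -0.27. None of the 21 passed the test. Hand2 had 14015, 10439 and 10615 in the WT libraries and 11108, 14147 and 11662 in the KO libraries, with overlapping groups and a log2 difference of 0.07 (95% interval -0.37 to 0.52). Gata2 had 9561, 6986 and 7115 in WT and 6555, 7968 and 7776 in KO, also overlapping, with a log2 difference of -0.09 (95% interval -0.57 to 0.40). With TMM factors, which centre the genes rather than the depth, both differences were positive, at 0.61 for Hand2 and 0.43 for Gata2.

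At 4 of the 7 sparsely marked regulators (Mesp1, Meox2, Gata5 and Twist2) all KO counts lay below all WT counts at E12.5, as they did at 33% of all genes tested, and none of the 7 passed the test. Mesp1 had depth-scaled counts of 270.3, 417 and 341 in WT and 154, 166 and 266 in KO. All 3 KO counts were below all 3 WT counts, and the log2 difference was -0.82 (SE 0.35, edgeR adjusted p = 0.157). Meox2 had 328, 457 and 404 in WT and 182, 202 and 301 in KO, again without overlap, and a log2 difference of -0.80 (SE 0.34, edgeR adjusted p = 0.156). Gata5, a factor of heart and gut, had 636, 994 and 736 in WT and 383, 462 and 631 in KO, with the highest KO library just below the lowest WT library and a log2 difference of -0.68 (SE 0.32, edgeR adjusted p = 0.174). In all 3 genes KO replicate 3 was the highest of its group, and with TMM factors the differences were -0.29, -0.27 and -0.15. The densities of Mesp1 overlapped, with 43.6, 33.1 and 46.1 per kb in WT and 33.5, 23.7 and 51.2 in KO. Those of Gata5 did too, with 72.3, 45.6 and 55.8 in WT and 42.6, 42.0 and 70.2 in KO. At Meox2 the mean density was 80.8 per kb in WT (SD 13.6) and 59.8 in KO (SD 2.9).

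Over the whole list, edgeR's quasi-likelihood test called 0 of 28 genes lower in KO at E12.5, against 4.05% of the 3139 genes tested, and 0 of 28 higher, against 0% of all genes. At an unadjusted p under 0.05 there were 2 of the 28, Mesp1 and Meox2, against 895 genes lower and 10 higher of the 3139. With TMM factors or with DESeq2, 0 of the 28 were called. Of all 3139 genes, TMM factors gave 38 lower and 9 higher, and DESeq2 98 lower and 73 higher. KO and WT did not overlap at 6 of 28 genes, all lower in KO (Tbx18, Gata5, Nkx2-3, Mesp1, Twist2 and Meox2), against 33% of all genes lower and 0.35% higher. With TMM factors the differences at Nkx2-3 (0.26) and Tbx18 (0.33) were positive. Differences ran from -0.82 at Mesp1 to 0.07 at Hand2. The median was -0.14 over the 28 genes and -0.57 over all genes tested, and TMM factors moved these medians to 0.40 and -0.05. With DESeq2 they were 0.45 and 0.02. The sign of the list's median thus depended on the scaling. A change of scaling shifts all genes by nearly the same amount, so it cannot test the list's place relative to all genes. Among the 28, the 7 sparsely marked genes had a median of -0.64 and the other 21 a median of -0.09. All tested genes showed the same split, with -0.63 over the 2751 genes below 100 per kb and -0.21 over the 388 at or above it, and with TMM factors the 4 medians were -0.06, 0.43, -0.10 and 0.31 in the same order.

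Single libraries decided whether genes were called at E12.5. Without KO replicate 3, edgeR called Mesp1 (log2 difference -1.10, adjusted p = 0.0428), Meox2 (-1.05, adjusted p = 0.0428) and Myod1 (-0.94, adjusted p = 0.0457) lower in KO, which is 3 of 28 against 28.7% of all genes in the same fit (902 of 3143). Over all alternatives the adjusted p ranged from 0.0428 to 0.548 for Mesp1, from 0.0428 to 0.531 for Meox2 and from 0.0457 to 0.985 for Myod1. The KO counts of Myod1 were 268, 297 and 546 and its WT counts 445, 638 and 537, so that KO replicate 3 lay among the WT libraries. Without WT replicate 1, Pdx1 was called lower (-0.84, adjusted p = 0.0358, range 0.0358 to 0.982), 1 of 29 against 14.1% of all genes. Pdx1 and Cdx2 lie next to each other on chromosome 5 and shared 1 interval of 73.0 kb with 30851 counts in E12.5 WT replicate 2, which gave Pdx1 a depth-scaled count of 11479 there, against 3291 to 5090 elsewhere.

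**Figure D4:**
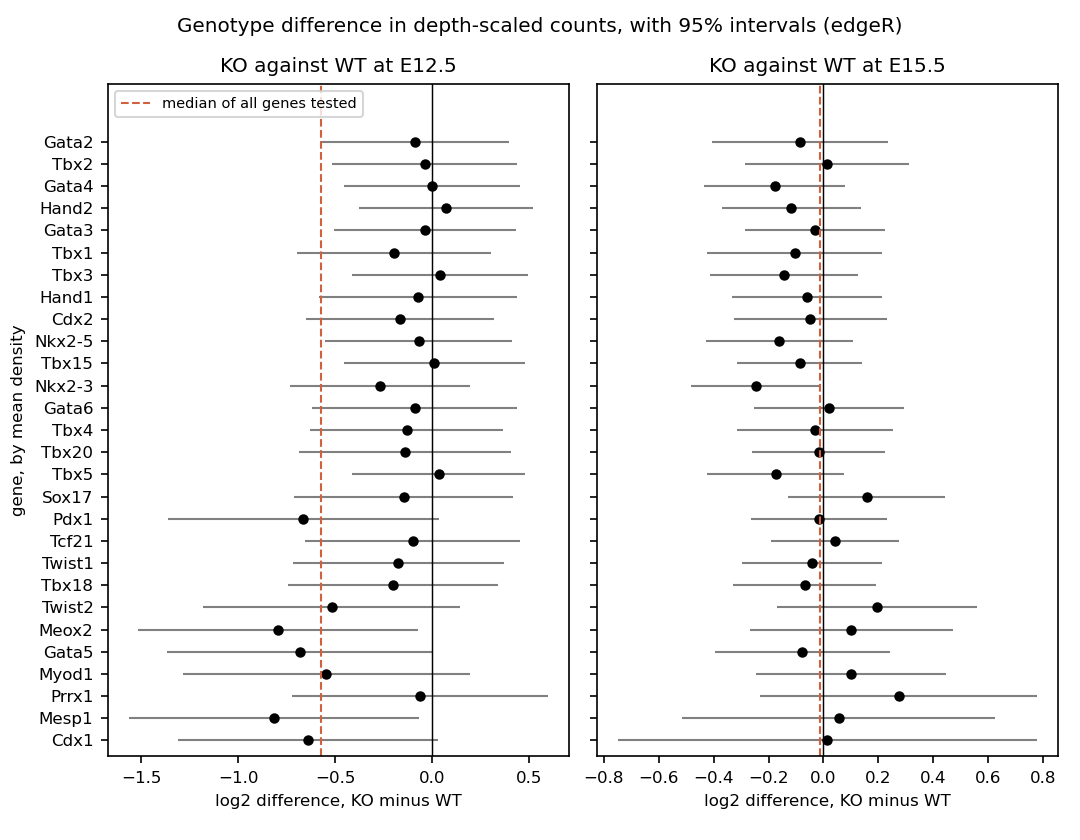
Log2 difference in depth-scaled counts, KO minus WT, for the 28 genes (rows, ordered by density) at E12.5 (left) and E15.5 (right); points are edgeR estimates, bars their 95% intervals, and the dashed line the median of all genes tested, -0.57 and -0.01. At E12.5 the lowest 7 rows lie at -0.52 or below except Prrx1 at -0.06, and the rows above them lie at -0.27 or higher except Pdx1 at -0.66; at E15.5 all points lie between -0.25 and 0.27.

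At E15.5 no difference between genotypes passed the test. edgeR called 0 of 28 genes lower in KO, against 0.0742% of the 2694 genes tested, and 0 of 28 higher, against 0.408%. At an unadjusted p under 0.05 there was 1, Nkx2-3, against 108 genes lower and 195 higher of the 2694. With TMM factors or DESeq2, 0 of the 28 were called. Of all 2694 genes, TMM factors gave 2 lower and 15 higher, and DESeq2 24 lower and 48 higher. Nkx2-3 had depth-scaled counts of 7409, 6711 and 7159 in WT and 5789, 6537 and 5624 in KO. All KO libraries were below all WT libraries, with a log2 difference of -0.25 (SE 0.10, edgeR adjusted p = 0.437). It was the 1 gene of 28 whose groups did not overlap, against 8.05% of all genes lower and 11.1% higher in KO. Of the 7 sparsely marked genes, 1 had a negative log2 difference at this stage, Gata5 (-0.08). Mesp1 had 125, 203 and 229 in WT and 219.7, 208 and 159 in KO, and Meox2 had 107, 139 and 133 in WT and 134, 136 and 139.9 in KO. The groups overlapped for both. The median over the 28 genes was -0.04, and -0.01 over all genes.

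Over both stages together edgeR called 0 of 28 genes lower, against 0.923% of 2491 genes, and 0 higher, against 0.0401%. At an unadjusted p under 0.05 there was 1, Nkx2-3, with a log2 difference of -0.26 (SE 0.10, edgeR adjusted p = 0.198). Of the 2491 genes, 501 were lower and 25 higher at this unadjusted threshold. With TMM factors 0 of the 28 were called, against 49 genes lower and 53 higher of the 2491. DESeq2 called 1 of 28, Prrx1, higher in KO (0.43, adjusted p = 0.00721, range over the alternatives 0.00721 to 0.973), where edgeR gave 0.10, against 4.22% of all genes called higher by DESeq2. The second smallest edgeR adjusted p was that of Gata5 (-0.38, SE 0.18, adjusted p = 0.239). With TMM factors the difference at Nkx2-3 was 0.02 and at Gata5 -0.09. The medians were -0.09 for the list and -0.29 for all genes, and with TMM factors 0.18 and 0.00.

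The difference between the stages in the effect of genotype was tested as an interaction. edgeR called 0 of 28 genes with a higher KO to WT difference at E15.5 than at E12.5, against 0.562% of 2491 genes, and 0 with a lower one, against 0% of all genes. Meox2 (0.90, SE 0.34, adjusted p = 0.141) and Twist2 (0.72, SE 0.31, adjusted p = 0.166) had an unadjusted p under 0.05. Among the 2491 genes, 684 did so with a higher difference and 2 with a lower one. With TMM factors or DESeq2, 0 of the 28 were called. Of all 2491 genes, TMM factors gave 0 lower and 6 higher, and DESeq2 5 lower and 38 higher. The result rested on E12.5 KO replicate 3, without which edgeR called Meox2 (1.15, adjusted p = 0.0181), Myod1 (1.04, adjusted p = 0.0217), Twist2 (0.96, adjusted p = 0.022), Mesp1 (1.16, adjusted p = 0.0353) and Gata5 (0.83, adjusted p = 0.0412). The highest adjusted p over the alternatives was 0.472 for Meox2, 0.898 for Myod1, 0.809 for Twist2, 0.666 for Mesp1 and 0.974 for Gata5. These 5 of 28, all sparsely marked, compare with 38.5% of all genes in the same fit (959 of 2491). The median was 0.11 over the list and 0.61 over all genes, and with TMM factors it was -0.47 and 0.02.

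Covered bases gave no call at any of the 30 genes with an interval in at least 1 library. limma called 0 of 30 in KO against WT at E12.5 (0.375% of all genes tested), 0 at E15.5 (1.06%), 0 over both stages (0% of all genes), 0 for the interaction (0.499%) and 0 between the stages (1.05%). An unadjusted p under 0.05 occurred at Meox2 at E15.5, where log2 covered bases were 0.70 higher in KO (SE 0.26, limma adjusted p = 0.659), and for Meox2 in the interaction (1.04, SE 0.40, adjusted p = 0.514). Of all genes, 234 of 6444 were higher at this unadjusted threshold at E15.5 and 650 of 8010 in the interaction. The interval at Meox2 was 2.0, 2.4 and 2.2 kb long in E15.5 WT and 2.6, 4.4 and 4.4 kb in E15.5 KO. Its depth-scaled counts overlapped between the genotypes. Its mean density was 57.4 per kb in E15.5 WT (SD 3.5) and 38.1 in E15.5 KO (SD 11.6). KO libraries were the deeper ones at this stage, and the part of depth in these values was not tested. At the 11 genes covered over the full window in every library, this measure could not show a difference.

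Between the stages, the depth-scaled counts of the mesenchymal regulators Prrx1 and Meox2 were lower in every E15.5 library than in every E12.5 library. Prrx1, a factor of limb and craniofacial mesenchyme at chr1:163245119-163315145, had depth-scaled counts of 429.9, 567 and 724 (lowest, median and highest of 6 libraries) at E12.5 and of 107, 145 and 200.05 at E15.5. The stages were far apart in both genotypes, and Prrx1 fell by 1.95 on the log2 scale (SE 0.19, 3.87-fold lower, edgeR adjusted p = 1.85e-05). Its density went from 39.1 to 67.1 per kb at E12.5 to 13.1 to 20.005 per kb at E15.5, while the interval length overlapped, with 9.2 to 13.8 kb and 7.2 to 10.8 kb. The interval thus remained in place with fewer counts per kb.

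Meox2, at chr12:37108540-37179534, had depth-scaled counts of 182, 315 and 457 at E12.5 and of 107, 135 and 139.9 at E15.5. The counts of the stages did not overlap, although the E12.5 KO libraries lay nearer to the E15.5 values than the WT libraries did. Its density did overlap, with 57.0 to 96.5 per kb at E12.5 and 30.9 to 60.7 per kb at E15.5. The interval length overlapped too, with 3.2 to 6.2 kb and 2.0 to 4.4 kb. The part of interval length in the lower counts was not tested. Meox2 fell by 1.19 on the log2 scale (SE 0.22, 2.27-fold lower, edgeR adjusted p = 0.00216). Both genes passed the threshold in all 22 alternatives, with adjusted p from 3.47e-38 to 0.000146 for Prrx1 and from 4.26e-15 to 0.00859 for Meox2.

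Cdx2, Twist2 and Myod1 were also called lower at E15.5. Cdx2, the regulator of intestinal identity at chr5:147300900-147307249, had depth-scaled counts of 7413, 8941 and 11479 at E12.5 and 5512, 6555 and 7176 at E15.5, without overlap, and fell by 0.46 on the log2 scale (SE 0.12, edgeR adjusted p = 0.0134). Its highest E12.5 value came from the interval shared with Pdx1, and with counts shared out to the window, with TMM factors or with DESeq2 it was not called (adjusted p up to 0.369). Twist2, a factor of dermal and bone mesenchyme, had 418, 727 and 833 at E12.5 and 318, 437 and 503.5 at E15.5, with overlap, and fell by 0.63 (SE 0.19, edgeR adjusted p = 0.0266). Myod1 had 268, 491 and 638 at E12.5 and 242, 287 and 336 at E15.5, with overlap, and fell by 0.63 (SE 0.21, edgeR adjusted p = 0.0432). Twist2 kept its call in 16 of 22 alternatives (adjusted p 0.000737 to 0.0769) and Myod1 in 10 (adjusted p 0.00464 to 0.166).

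**Figure D5:**
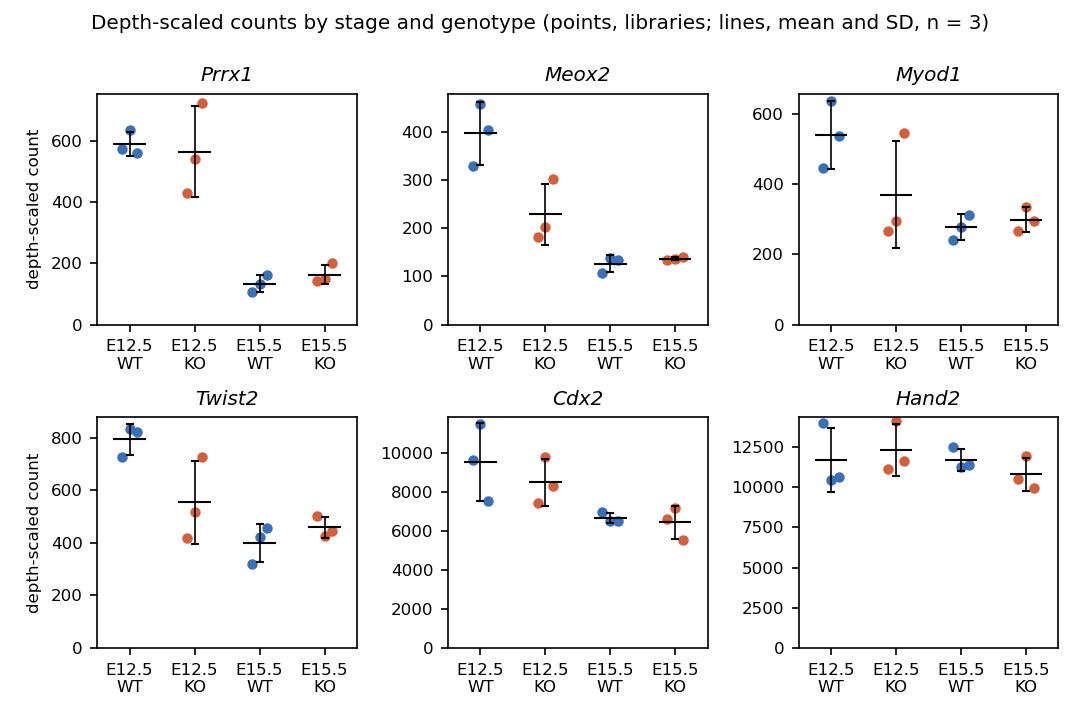
Depth-scaled counts (vertical axis, from 0) of the 5 genes called lower at E15.5 and of Hand2 for comparison, by stage and genotype; points are libraries, lines the mean and SD of 3. All E15.5 libraries lie below all E12.5 libraries for Prrx1, Meox2 and Cdx2, the stages overlap for Myod1 and Twist2, and Hand2 lies between 9923 and 14147 throughout.

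Counted over the list, 5 of 28 genes were lower at E15.5, against 21.9% of the 2491 genes tested, and 0 were higher, against 3.69%. The share of lower genes was not above the background. Single libraries moved the count of 5. It became 8 without E12.5 KO replicate 1, where 891 of all 2561 genes were lower. It became 3 without E12.5 KO replicate 3, where 308 of 2491 genes were lower, or without any 1 of the 3 E15.5 WT libraries. Without E15.5 WT replicates 1, 2 and 3 in turn, 385 of 2715, 319 of 2539 and 374 of 2504 genes were lower. The stages did not overlap at 3 of 28 genes, all lower at E15.5, against 6.9% of all genes lower and 1.2% higher. Depth scaling put the median of all genes at -0.29 and that of the list at -0.13, and TMM factors put them at -0.01 and 0.12. With TMM factors, 4 of the 28 were lower (Prrx1, Meox2, Twist2 and Myod1), against 20.2% of genes, and 3 were higher (Gata5, Tbx20 and Twist1), against 19.8%. Gata5 then had a log2 difference of 0.53 (adjusted p = 4.7e-05), compared with 0.24 (adjusted p = 0.343) under depth scaling, and its adjusted p over the alternatives ranged from 5.7e-16 to 0.555. With DESeq2 the medians were 0.01 and 0.13, and Prrx1, Meox2, Twist2 and Myod1 lay below the median of all genes under all 3 scalings. The scalings shift all genes by nearly the same amount, so this agreement adds no support. By family and under depth scaling, 3 of 6 somite and mesenchyme genes, 1 of 4 gut and endoderm genes and the 1 marked myogenic gene fell, and 0 of 8 T-box, 0 of 5 GATA and 0 of 4 Hand and Nkx2 genes passed the test.

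Among the genes that did not pass, Hand2 had depth-scaled counts of 10439, 11385 and 14147 at E12.5 and 9923, 11307 and 12515 at E15.5, and a log2 difference of -0.09 (95% interval -0.32 to 0.14). Gata4 had 10560.1, 11144 and 14664 at E12.5 and 9679, 11660.3 and 12840.2 at E15.5 (-0.07, 95% interval -0.31 to 0.16). Pdx1 (-0.61, adjusted p = 0.0546), Tbx5 (-0.27, adjusted p = 0.069) and Nkx2-3 (-0.23, adjusted p = 0.0938) had an unadjusted p under 0.05 in edgeR. With the 5 called genes these make 8 of 28, against 876 lower and 156 higher of all 2491 genes. With TMM factors the differences at Hand2 (0.14), Gata4 (0.16) and Nkx2-3 (0.02) were positive.

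Markers of vascular, mesenchymal and blood cells were examined beside these values, because the dissection differed between the stages. Of 21 markers, 6 had an interval in all 12 libraries, among them the endothelial genes Kdr, Flt1 and Cldn5, and 10 had none in any, among them the endothelial genes Pecam1 and Cdh5 and the microglial genes Csf1r, Aif1, Cx3cr1 and P2ry12. The summed depth-scaled count of the 21 was 2553 to 4161 in E12.5 WT, 2006 to 2792 in E12.5 KO, 1871 to 2598 in E15.5 WT and 2097 to 2641 in E15.5 KO. At the stage comparison 1 of the 6 was called, Col1a1, lower at E15.5 (-0.77, edgeR adjusted p = 0.0405), and the median of the 6 was -0.33. Of all genes tested 21.9% were called lower, and their median was -0.29. The part of other cell types in the fall at Prrx1, Meox2 and Twist2 was not tested.

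Related lists placed the regulators among other genes of the same lineages. Other mesoderm regulators had an interval in all 12 libraries at 34 of 38 genes and other endoderm regulators at 17 of 20, with median densities of 145.5 and 116 per kb. By contrast, effector genes of muscle and heart did so at 5 of 27 and endoderm effector genes at 0 of 20. Between genotypes, 1 other mesoderm regulator was called, Foxc2, lower in KO at E12.5 (-0.96, edgeR adjusted p = 0.0427). This was 1 of 35 tested, against 4.05% of all genes lower in KO. Between the stages, Irx4 (-0.39, adjusted p = 0.0214), Neurog3 (-1.35, adjusted p = 0.000376) and Ptf1a (-1.03, adjusted p = 0.00303) were lower and Prox1 (0.54, adjusted p = 0.037) higher at E15.5 in edgeR. These were 1 of 34 other mesoderm regulators lower, and 2 lower and 1 higher of 17 other endoderm regulators. Neurog3 and Ptf1a, like Pdx1, act in the pancreas, and Neurog3, Ptf1a and Prox1 also act in the nervous system. Of the 8 MGE genes tested, 5 were lower at E15.5, led by Dlx5 (-1.05, adjusted p = 6.53e-05), Dlx1 (-1.13, adjusted p = 0.000171) and Gsx2 (-1.90, adjusted p = 0.000362), and 1 was higher. Between the stages, 21.9% of all genes were lower and 3.69% higher. The values of the related lists are given under depth scaling alone.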

How the data were processed

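The authors deposited 1 list of H3K27me3 intervals per library on GRCm38/mm10, with a count of reads and a score per interval. The submitters' processing notes name cutadapt, Bowtie2, SAMtools, Picard, deepTools and SICER, with the order and settings not given in the sources used here. Interval ends fall on multiples of 200 bp. The deposited score of single-window intervals equalled the negative natural log of a Poisson probability of their count, and the Poisson mean that reproduced it was taken as the library's depth. That this depth is proportional to the reads sequenced is an assumption.

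A gene's count in a library is the sum over intervals that overlap its body or 2.5 kb flanks, multiplied by the mean depth of all libraries over its own. Bases outside intervals are not counted, so a lower count can come from a weaker mark or a shorter interval. Genes with an interval in every library compared were tested with edgeR 4.0.16 (quasi-likelihood, library size proportional to depth, R 4.3.3). Log2 covered bases plus 200 were tested with limma 3.58.1. Adjusted p-values are Benjamini-Hochberg over all genes tested, two-sided, with 0.05 as the threshold. They measure the spread between these libraries. Alternatives were TMM factors, DESeq2 1.42.0, total counts as library size, other filters and flanks, counts shared out to the window, the replicate block and each library left out. Merged regions, genes with like interval lengths and lists of equal covered length were among those tried. Scripts were tested on simulated data.

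The genes and lists were chosen with earlier results of these data known. All 35 genes could be named. Of each other list at most 3 genes per comparison were named, those past the threshold with the smallest adjusted p. Sequences were shown for the highest and lowest density and the 2 smallest adjusted p over both stages, off chromosome 18, and Myog and Hnf4a were added after their values were seen.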

Additional observations from a re-analysis of the deposited data

How the results depend on the processing

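The 28 regulators with an interval in all 12 libraries remained 28 with no flank and became 24 with lists of equal covered length, where Myod1, Mesp1, Prrx1 and Meox2 each had 11 of 12. The lists hold called intervals only, depth differed between libraries, and replicates were few, so small differences at sparsely marked genes were not detectable. The 5 regulators called between the stages under depth scaling kept their direction under all 22 alternatives. For all lost or gained calls below, the cause was not tested.

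Of all genes, the count test called 127 between genotypes at E12.5, and 47 with TMM factors (38 lower and 9 higher), 32 with total counts as library size, 10 with an interval required in 50% of the libraries, 269 with 10 kb flanks, 18 with like interval lengths, and 229 with counts shared out to the window, an alternative chosen after seeing the data. At E15.5 it called 13, and 72 with DESeq2, 2 with that relaxed filter, 77 with merged regions and 0 with like interval lengths. Over both stages it called 24, and 102 with TMM factors (49 lower and 53 higher), 219 with DESeq2, 39 with total counts, 0 with the relaxed filter, 48 with shared-out counts, 135 with merged regions and 5 with like lengths. For the interaction it called 14, and in the same order 6, 43, 24, 2, 29, 106 and 0, and 43 with 10 kb flanks. Between the stages it called 637, and 994 with TMM factors, 1140 with DESeq2 and 405 with like lengths.

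Of the regulators, DESeq2 called 1 over both stages. Between the stages the 5, all lower at E15.5, became 8 with DESeq2 (4 lower and 4 higher) and 8 with merged regions (all lower). They became 9 with total counts (4 lower and 5 higher), and 3, all lower, with shared-out counts or the relaxed filter. Of all genes, DESeq2 called 563 lower and 577 higher of 2491, and merged regions 771 lower and 125 higher of 2821. Total counts called 397 lower and 341 higher of 2491, shared-out counts 514 lower of 2488, and the relaxed filter 408 lower of 4427. Covered bases called 27 genes at E12.5, 68 at E15.5, 0 over both stages, 40 for the interaction and 84 between the stages. With 1000 bp added, E12.5, E15.5 and the interaction became 15, 34 and 22. With an interval in every library they became 0, 0 and 0, and the stage count 6. With lists of equal covered length, E15.5 gave 3, both stages 1, the interaction 7 and the stages 14.

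Leaving out 1 library in turn gave 11 to 904 genes at E12.5 (0 to 3 regulators), 0 to 13 at E15.5, 0 to 40 over both stages, 0 to 959 for the interaction (0 to 5 regulators) and 374 to 992 between the stages (3 to 8 regulators). For covered bases the ranges were 0 to 669, 66 to 103, 0 to 1, 29 to 555 and 52 to 79 in the same order.

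Deviations of same-numbered WT and KO libraries correlated at 0.116, 0.0589 and 0.0391 at E12.5 and at -0.235, -0.166 and -0.361 at E15.5. For different numbers the correlations ran from -0.0904 to 0.0447 at E12.5 and from -0.0839 to 0.286 at E15.5. These values did not settle whether the replicate numbers pair the libraries at E12.5. With the replicate block the count test called 305 genes at E12.5, 0 at E15.5, 5 over both stages and 52 for the interaction, and 0 regulators in each. Covered bases with the block gave 0 at E12.5, 0 at E15.5, 0 over both stages, 25 for the interaction and 55 between the stages. For covered bases the block joined the same replicate number across the stages, whereas for counts it was nested in stage. The covered-bases fits with both stages thus rest on a pairing that the labels do not give, and no conclusion is drawn from them. The block was not run for the stage difference in counts, since numbers are nested in stages.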
